A study of Mus musculus with 10 samples.

Results

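The 33 genes described here serve the last steps of sperm formation: packing of sperm chromatin, the acrosome and egg binding, the flagellum, late kinases with a late regulator, sperm energy metabolism and the sperm calcium channel. They were chosen by these roles, as genes used after meiosis, and not by measured values. Each gene was taken as its RefSeq span on mm10 with 2 kb on either side, and a cytosine was used where each library had at least 5 reads on it. The 33 genes are among 21883 protein-coding genes, and their spans hold 3355 of the 6745376 cytosines of the deposited table, in 2220 of 4489220 CpGs. Every member has at least 1 listed CpG, and 4 CpGs lie in the span of more than 1 member. The data are DNA methylation, so late use of the genes is background here and was not measured.

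The assay was RRBS, bisulfite sequencing of a reduced part of the genome, which reads the ends of restriction fragments and so covers some CpGs of a gene and not others. The cells were ID4-EGFP+ spermatogonia, germ cells that carry a green reporter of the stem cell factor Id4, from testes of pups at postnatal day 6. TSPAN8, a surface tetraspanin, was stained with an antibody, and the most strongly and the most weakly stained cells were collected as the TSPAN8-high and the TSPAN8-low fraction. Each fraction gave 1 library, from 300 ng of DNA pooled over 5 sorts. Both fractions share the Id4-eGfp transgene, the line (LT-11B6), its C57BL/6 background and the age, and no cells without the reporter are among the groups. Of the 10 samples in the series, the 8 chromatin samples were not analysed here. With 1 library per fraction there is no error between replicates, and every test compares 2 libraries, not 2 conditions.

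At the end of sperm formation histones are replaced by transition proteins and then by protamines, while the acrosome, a vesicle needed to enter the egg, and the flagellum are built. Many genes for these steps are silent in spermatogonia and are switched on in round spermatids. Many of these are switched on through the activator CREM, which binds cyclic AMP response elements. CpG-dense start sites are commonly unmethylated whether or not the gene is used, whereas isolated CpGs are commonly methylated.

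The members' start regions differ widely in CpG number, and the 5 below were picked after the methylation values were seen, to show that range. Each is the stretch of 250 bases before the RefSeq start site (GRCm38.p6, read along the gene), with every CG in capitals.
Catsper2, chr2:121413793-121414042, minus strand: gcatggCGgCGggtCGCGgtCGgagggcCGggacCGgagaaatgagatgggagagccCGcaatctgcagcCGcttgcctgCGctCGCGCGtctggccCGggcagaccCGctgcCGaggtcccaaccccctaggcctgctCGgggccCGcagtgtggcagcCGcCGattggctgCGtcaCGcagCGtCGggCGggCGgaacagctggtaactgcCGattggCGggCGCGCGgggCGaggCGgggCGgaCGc
Izumo1, chr7:45621561-45621810, plus strand: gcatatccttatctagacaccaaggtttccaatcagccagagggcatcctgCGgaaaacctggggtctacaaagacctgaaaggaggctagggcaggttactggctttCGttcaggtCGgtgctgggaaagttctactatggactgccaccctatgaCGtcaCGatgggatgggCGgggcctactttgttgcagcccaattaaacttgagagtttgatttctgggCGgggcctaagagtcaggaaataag
Tnp1, chr1:73015900-73016149, minus strand: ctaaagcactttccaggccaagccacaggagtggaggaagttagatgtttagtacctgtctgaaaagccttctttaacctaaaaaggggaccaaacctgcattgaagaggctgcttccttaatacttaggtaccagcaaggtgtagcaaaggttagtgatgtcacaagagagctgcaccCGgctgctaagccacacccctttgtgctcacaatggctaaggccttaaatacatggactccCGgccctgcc
Tssk1, chr16:17893953-17894202, plus strand: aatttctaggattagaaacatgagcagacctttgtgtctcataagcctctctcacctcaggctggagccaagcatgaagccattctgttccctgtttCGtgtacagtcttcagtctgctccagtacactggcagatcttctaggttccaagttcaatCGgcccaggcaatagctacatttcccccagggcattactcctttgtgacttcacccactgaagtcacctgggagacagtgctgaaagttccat
Prm1, chr16:10796824-10797073, minus strand: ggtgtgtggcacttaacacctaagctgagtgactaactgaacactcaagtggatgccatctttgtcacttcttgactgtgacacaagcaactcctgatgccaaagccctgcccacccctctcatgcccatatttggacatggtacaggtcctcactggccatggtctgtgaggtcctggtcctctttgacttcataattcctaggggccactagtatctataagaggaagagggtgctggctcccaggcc

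The stretch before Catsper2 holds 35 CpGs, that before Izumo1 7, those before Tnp1 and Tssk1 2 each, and that before Prm1 0. Catsper2, a subunit of the sperm calcium channel, had 15 of these CpGs in the table, with at most 3.92% in TSPAN8-high and 0% throughout in TSPAN8-low. Tssk1, a kinase of spermatids, had both of its CpGs in the table. The one 153 bases before the start of Tssk1 was methylated in 23 of 24 reads in TSPAN8-high and 17 of 17 in TSPAN8-low, and the one 93 bases before it in 14 of 16 and 17 of 18. Tnp1, a transition protein gene with as few CpGs in this stretch as Tssk1, had 1 CpG in the table, 71 bases before the start, with 0 of 8 and 0 of 5 methylated reads. The listed CpGs of Tssk1 and Tnp1 thus lay at opposite levels in both libraries, but the Tnp1 side rests on 1 CpG with few reads. The CpG numbers were equal only before the start. In the promoters of 300 bases used below, which reach past the start, Tnp1 had 6 CpGs and Tssk1 had 2. The pair therefore does not show that the level varies at equal CpG number.

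RefSeq promoters of 300 bases (250 before and 50 after the start) were matched for 28 of the 33 members. Members had a median of 5 CpGs in them (range 0 to 41), and all 17491 promoters had a median of 13 (0 to 65). The ratio of observed to expected CpGs had a median of 0.244 in members and 0.577 in all promoters.

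Both gene ends were compared within each member. A listed CpG within 1 kb of an end was given to the nearer end, and the end with more listed CpGs is called the CpG-richer end. A level is the percentage of methylated reads pooled over the CpGs of a window, and is given for TSPAN8-high first and TSPAN8-low second. The richer end had at least 5 CpGs, the minimum for a test, in 21 members. Of these, 9 lay below 20% in both libraries, 8 lay above 80% in both, and 4 lay between. Among all 16260 genes with such an end, 79.6% lay below 20% in both libraries and 12.5% above 80% in both. The 9 low ends held 8 to 63 CpGs (median 29), and the 8 high ends 5 to 8 (median 6). Among the high ends, those of Prm1, Tnp2, Acrv1, Spaca7 and Tssk2 were annotated far ends, and that of Catsper3 was the start side. Among the low ends, those of Tnp1, H1fnt, Zpbp2, Tssk3, Tssk6 and Catsper2 were start sides, and that of Gapdhs was the far end. Acr, Catsper1, Cabyr and Crem had no known strand. The split is therefore not one between start regions. The class counts depend on the settings: with at least 10 reads per cytosine, 12 richer ends were left and 1 lay above 80% in each library. With windows of 2 kb, the class in TSPAN8-high changed at several members. Tnp2 (47.7%) was no longer above 80%, H1fnt (23.5%) and Zpbp2 (30.9%) no longer below 20%, and Odf2 (8.60%) no longer between. At Catsper3 (19.8%), Ldhc (95.9%) and Izumo1 (13.6%) the richer end of the 2 kb windows was the far end, not the start side. Their values thus describe another place than those of the 1 kb windows.

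In 9 members there were 1 to 4 CpGs at the richer end (Prm2, Prm3, Hils1, Spaca3, Akap3, Smcp, Tssk1, Pgk2 and Catsper4), and each was at 81.8% or more in both libraries. In Spaca1, Zpbp and Odf1 the ends tied. The poorer end had no listed CpG in 11 members, 1 to 4 in 13 and at least 5 in 6.

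**Figure D1:**
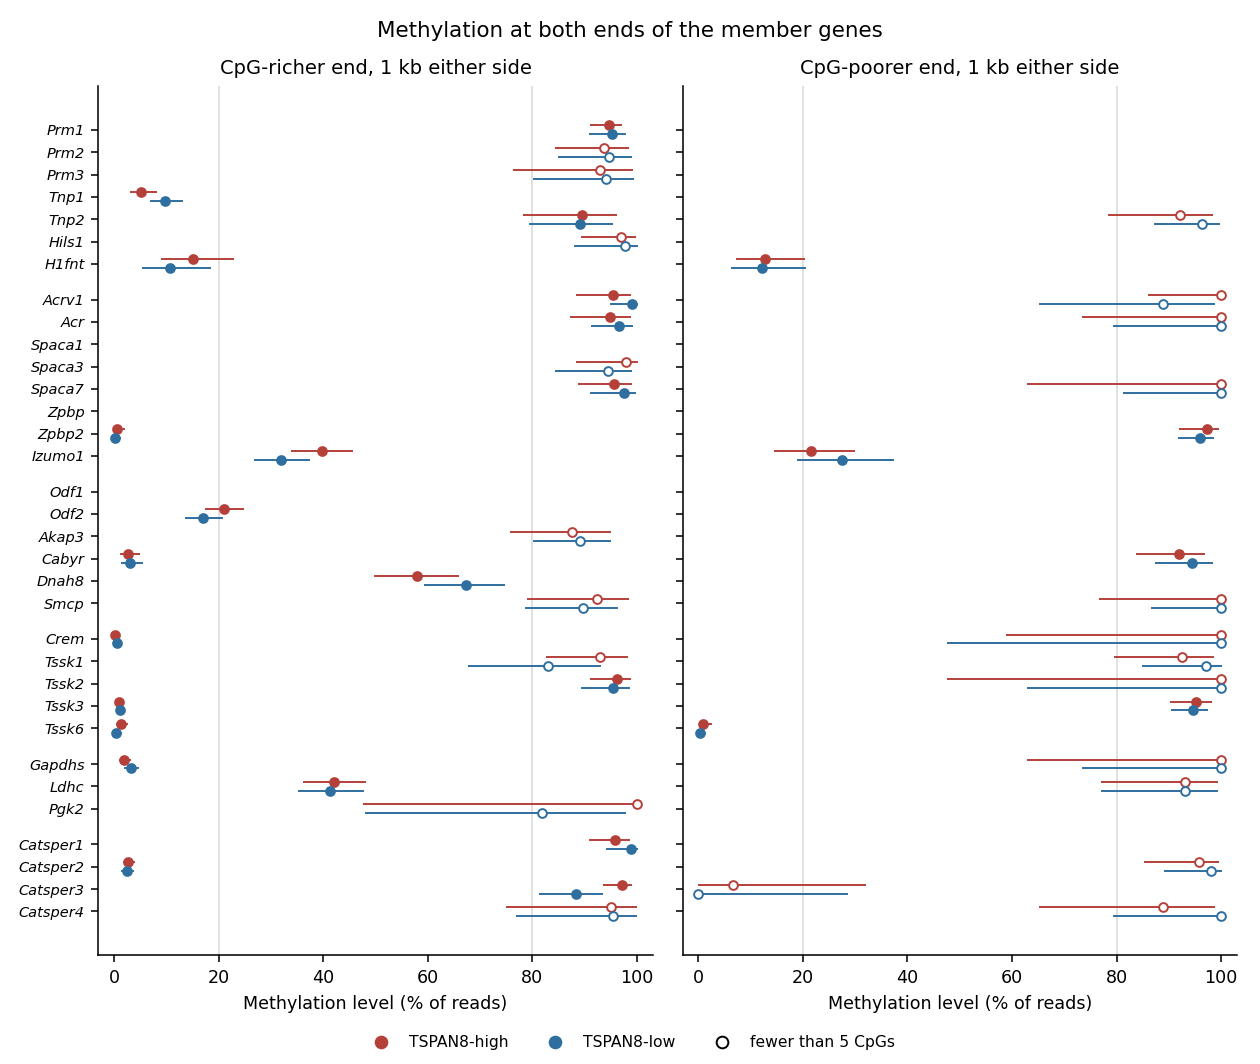
Methylation level (percent of reads, with exact 95% intervals) at the CpG-richer end (left) and the CpG-poorer end (right) of the members, in TSPAN8-high (red) and TSPAN8-low (blue), with rows grouped by role. Open circles rest on fewer than 5 CpGs, and the 3 members with a tie have no points. At the richer end 9 filled pairs sit left of the line at 20% and 8 sit right of the line at 80%.

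At 19 members with a listed CpG at both ends, the richer end was the less methylated one in 13 (68.4%) in TSPAN8-high and in 15 (78.9%) in TSPAN8-low. Over 16591 genes the share was 86.7% and 86.4%. The median of richer minus poorer end was -4.65 and -7.26 percentage points in members, beside -87.7 in both libraries over all genes. Where both ends had at least 5 CpGs, 3 of 6 members had the lower level at the richer end in TSPAN8-high and 4 of 6 in TSPAN8-low. In 17 members with a known strand and at least 5 CpGs, the richer end was the annotated start in 10 (58.8%), and over 12936 such genes it was the start in 87.0%. With the annotated start set against the far end in place of richer against poorer, the start was the lower one in 44.4% of 18 members in TSPAN8-high and 55.6% in TSPAN8-low.

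Of the 9 low richer ends, 4 contain the start site of a neighbouring gene: that of Fam229a beside Tssk3, Ndufa13 beside Tssk6, Tmem147 beside Gapdhs and Pdia3 beside Catsper2. None of the 8 high ends contains a start listed for a neighbour. No start was listed for Cst6 beside Catsper1 and Pitx1 beside Catsper3, both high ends, or for Ttc39c and Osbpl1a beside Cabyr, a low end. A start of these neighbours could thus not be found. No share over all genes is given beside these counts, so they are not read as a trait of the members. At Tssk3, Tssk6 and Catsper2 the shared end is the start side of the member, and the starts of both genes cannot be told apart by level. The low stretch of Tssk3 lay at -1191 to -352 bases from its RefSeq start and contained an end of Fam229a. At Gapdhs the shared end is its far end, away from its own start.

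Sperm chromatin genes lay on both sides. Prm1 and Prm2, the protamines that pack sperm DNA, the transition protein gene Tnp2 and the protamine-like gene Prm3 lie side by side on chromosome 16. Prm1 (chr16:10796332-10796823) had 5 CpGs at its far end, with 264 of 279 methylated reads in TSPAN8-high (94.6%, exact 95% interval 91.3 to 97.0) and 177 of 186 in TSPAN8-low (95.2%, 91.0 to 97.8). Its start had no listed CpG. Prm2 had 59 of 63 and 53 of 56 methylated reads over 2 CpGs at its start side, and Prm3 had 26 of 28 and 32 of 34 over 1 CpG at its far end. Tnp2 (chr16:10787935-10788655) was at 89.5% and 89.0% over 5 CpGs at its far end and at 92.1% and 96.3% over 3 CpGs at its start. All listed CpGs from Tnp2 through Prm1 were thus mostly methylated in both libraries. The one low stretch in the spans of these 4 genes lay in the flank of Tnp2, 1755 bp beyond its far end: 4 CpGs over 224 bp were at 0% and 3.17%, with an end of the gene Socs1 421 bp away.

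**Figure D2:**
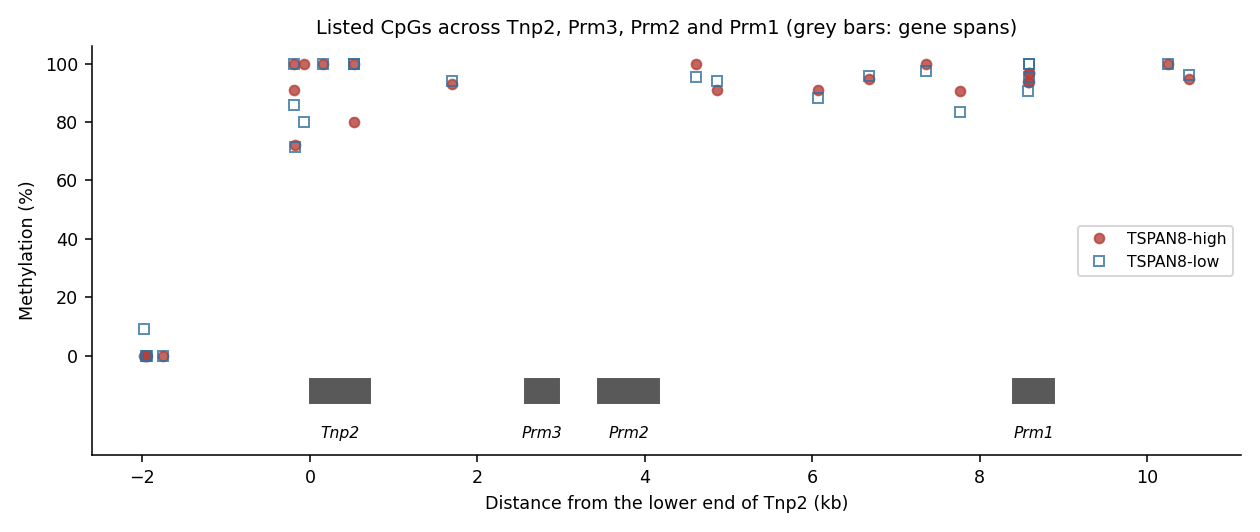
Level of each listed CpG (percent) along Tnp2, Prm3, Prm2 and Prm1, against the distance in kb from the lower end of Tnp2, with filled circles for TSPAN8-high and open squares for TSPAN8-low. CpGs within and between the 4 genes sit at 71.4% or above, and the 4 CpGs near -2 kb, close to Socs1, sit at the bottom.

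Tnp1 (chr1:73015074-73015899), the other transition protein gene, had the opposite state. Its richer end, which is its start, held 12 CpGs at 5.24% in TSPAN8-high (20 of 382 reads, interval 3.23 to 7.97) and 9.72% in TSPAN8-low (41 of 422, 7.06 to 12.9). Within it, 10 CpGs over 256 bp, from 71 bases before the start to 183 bases after it, were at 1.93% and 3.13%. Upstream of these the level was higher: the CpG of Tnp1 253 bases before the start was at 54.5% and 70.6%, and the one 510 bases before it at 87.5% and 100%. The low stretch thus covers the start of Tnp1 and the first part of the gene.

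H1fnt (RefSeq symbol H1f7, chr15:98255982-98257307), a linker histone of spermatids, was low over its short body. Its start side held 8 CpGs at 15.1% and 10.7% and its far side 6 CpGs at 12.8% and 12.2%. From 260 to 830 bases after the start, 11 CpGs were at 6.10% and 3.85%, while the CpGs of H1fnt 827 and 800 bases before the start were at 85.7% and 100% in TSPAN8-high and at 71.4% and 85.7% in TSPAN8-low. Hils1, another spermatid histone, had 3 CpGs at its start side with 64 of 66 and 44 of 45 methylated reads.

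Acrosome and egg-binding genes also differed among themselves. Acrv1 and Spaca7, proteins of the acrosome, and Acr, the protease acrosin, had methylated richer ends: 95.3% and 99.1% over 5 CpGs at Acrv1, 95.6% and 97.5% over 7 at Spaca7, and 94.9% and 96.5% over 7 at Acr. At Acrv1 and Spaca7 this is the far end, and Acr had no known strand. The start side of Acrv1 had 25 of 25 and 16 of 18 methylated reads over 2 CpGs. That of Spaca7 had 8 of 8 and 18 of 18 over 1 CpG. Spaca3, an acrosome membrane protein, had 45 of 46 and 51 of 54 methylated reads over 4 CpGs at its start side. Over their whole spans these 4 genes lay between 94.6% and 97.3% in TSPAN8-high and between 96.3% and 98.0% in TSPAN8-low. Spaca1, which is needed to shape the acrosome, had 2 CpGs at each end: 0 of 41 and 2 of 41 methylated reads at its start side, and 19 of 21 and 11 of 11 at its far end.

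Zpbp and Zpbp2, related proteins of the acrosomal matrix, had unmethylated starts. At Zpbp2 (chr11:98551097-98558665) the start side held 12 CpGs with 3 of 452 and 1 of 501 methylated reads (0.664% and 0.200%), and the far end 6 CpGs at 97.2% and 96.0%. At Zpbp (chr11:11279624-11464223) the 14 CpGs within 500 bp of the RefSeq start had 0 of 413 and 0 of 199 methylated reads, which allows a level of up to 0.726% and 1.51%. A read is counted at each CpG it covers, so these bounds can be too low. A low stretch of 2689 bp with 27 CpGs surrounded the start of Zpbp, ending 267 bp from an end of Spata48. The far end of Zpbp was at 94.3% and 98.1% over 5 CpGs.

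Izumo1 (chr7:45621811-45627242), the sperm protein that binds the egg receptor, was graded along its start. The richer end held 12 CpGs at 39.7% (116 of 292 reads) and 32.0% (109 of 341). The 3 CpGs of Izumo1 from 996 to 820 bases before the start lay between 78.6% and 92.2% in TSPAN8-high and between 91.7% and 100% in TSPAN8-low. The CpG 462 bases before the start of Izumo1 was at 67.9% of 56 reads and 48.4% of 62. From 199 bases before to 165 bases after the start of Izumo1, 8 CpGs were at 4.49% and 2.93%. The far end of Izumo1 was also partly low, at 21.6% and 27.5% over 5 CpGs, where 4 CpGs over 130 bp at 3.06% and 1.35% contain an end of Rasip1. The average of Izumo1 therefore joins a low start to methylated flanks.

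**Figure D3:**
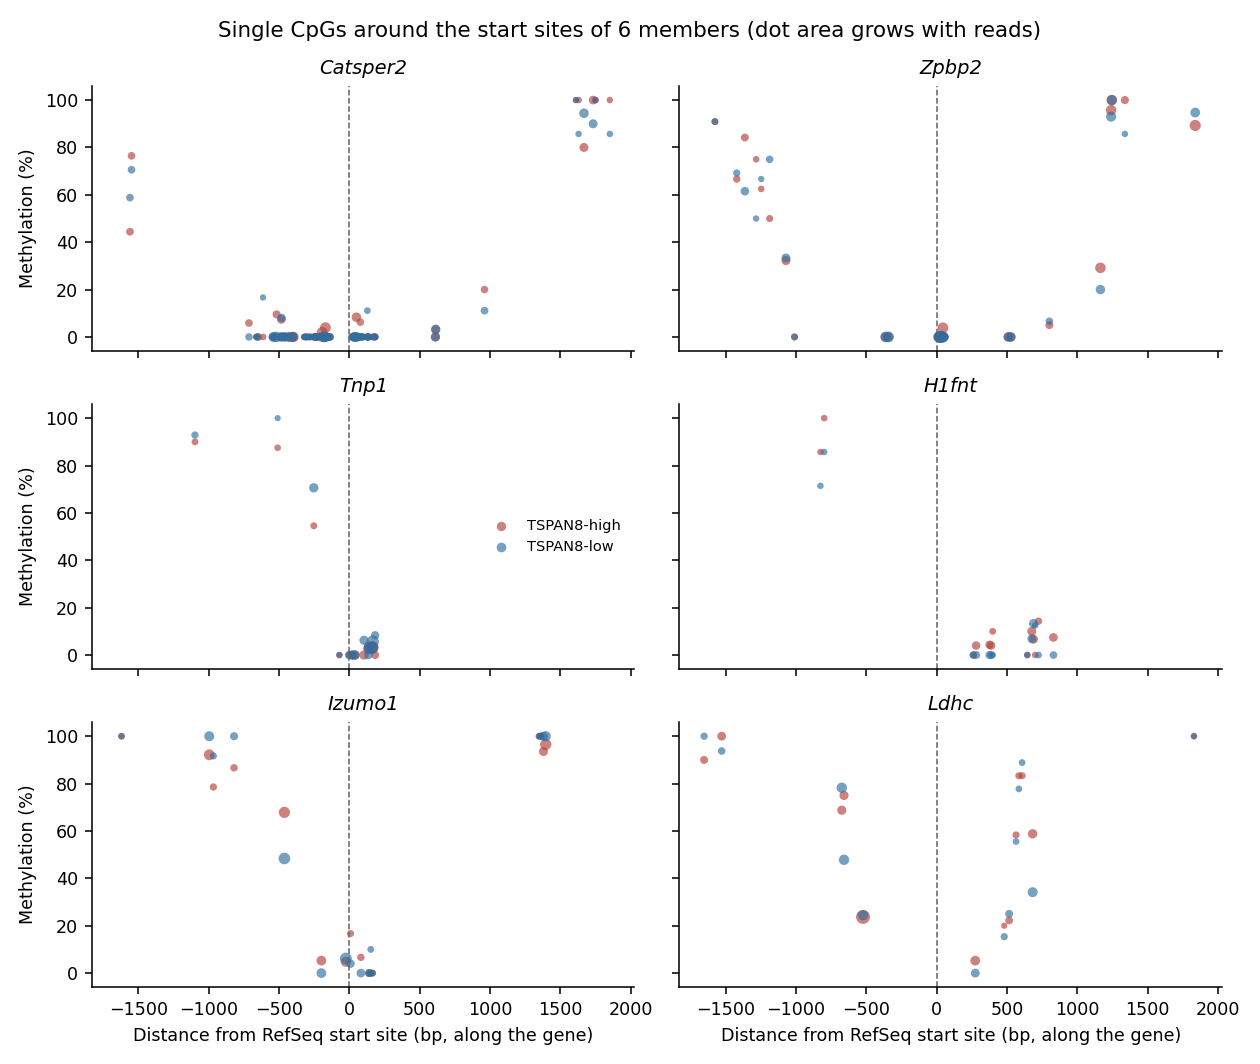
Methylation level of single CpGs (percent) against distance in bp from the RefSeq start site, along the gene, for Catsper2, Zpbp2, Tnp1, H1fnt, Izumo1 and Ldhc; dot area grows with the reads, and the dashed line is the start. In all 6 genes the CpGs closest to the start are low in both libraries, and CpGs further out reach high levels, steeply at Tnp1 and gradually at Izumo1 and Ldhc.

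Of the 3 flagellum genes with at least 5 CpGs at the richer end, 1, Cabyr, was below 20% in both libraries, and Odf2 and Dnah8 lay between. Odf2, an outer dense fibre protein that centrosomes of other cells also carry, had 19 CpGs at its lower gene end at 21.0% and 17.0%. That window is centred on the outermost annotated base, and within 1 kb of the RefSeq start itself 54 CpGs were at 0.545% (7 of 1285 reads) and 0.753% (10 of 1328). Cabyr, a calcium-binding protein of the fibrous sheath, was at 2.61% and 3.06% over 22 CpGs at its richer end and at 91.9% and 94.4% over 7 CpGs at its other end. Dnah8, an axonemal dynein heavy chain, had no listed CpG within 1 kb of its start and was mixed at its far end, at 58.0% and 67.3% over 10 CpGs. Its long span was methylated at 91.9% and 92.2% over 687 CpGs, with 2 low stretches inside it, of 9 CpGs at 2.38% and 1.85% and of 5 CpGs at 2.61% and 5.69%. Odf1, the other outer dense fibre gene, had 1 CpG at each end, methylated in all reads, and a span of 22 CpGs at 95.7% in both libraries. Akap3, a scaffold of the fibrous sheath, was at 94.1% and 95.7% over the 33 CpGs of its span, and Smcp, a mitochondrial capsule protein, at 93.9% and 94.0% over 4.

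Crem and the kinases Tssk3 and Tssk6 had richer ends below 2% in both libraries. Crem (chr18:3266354-3337773), whose activator form drives many spermatid genes and whose other forms are used in other tissues, had 1 of 893 and 4 of 808 methylated reads over 41 CpGs at its higher end (0.112% and 0.495%). Tssk3 had 12 of 1346 and 16 of 1395 over 52 CpGs (0.892% and 1.15%) beside 95.2% and 94.7% over 9 CpGs at its far end. The richer window of Tssk3 is centred on its outermost annotated base. Within 500 bp of the RefSeq start of Tssk3, 13 CpGs were at 4.64% and 2.99%. Tssk6 was low at both ends, at 1.36% and 0.475% over 47 CpGs and at 0.955% and 0.241% over 25. Tssk1 and Tssk2, which lie next to each other on chromosome 16, were methylated: Tssk2 was at 96.1% and 95.4% over 6 CpGs at its far end, and the spans were at 94.6% and 90.8% for Tssk1 and at 98.0% and 94.0% for Tssk2. Genes of 1 kinase family thus lay at both extremes.

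Genes of sperm metabolism encode testis forms of glycolytic enzymes. Gapdhs had 17 of 884 and 28 of 865 methylated reads over 29 CpGs at its far end (1.92% and 3.24%), the end that holds the start of Tmem147, and the 1 CpG at its own start side was methylated in all 8 and 12 reads. Ldhc (chr7:46861263-46878147) was at 42.1% and 41.4% over 10 CpGs at its start side. The CpG of Ldhc 274 bases after the start was at 5.26% and 0%, that 524 bases before it at 23.7% and 24.4%, and that 607 bases after it at 83.3% and 88.9%. Pgk2 had 1 listed CpG, with 5 of 5 and 9 of 11 methylated reads.

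The 4 CatSper genes encode the pore of the sperm calcium channel. Catsper2 had the most CpGs at its richer end, 63, at 2.75% (33 of 1201 reads) and 2.45% (26 of 1061), and 4 CpGs at its far end at 95.7% and 98.0%. The others had few CpGs and were methylated: Catsper1 at 95.7% and 98.9% over 6 CpGs, Catsper3 at 97.1% and 88.4% over 8 at its start side, and Catsper4 in 19 of 20 and 21 of 22 reads over 2. The far end of Catsper3 reached a low stretch of 31 CpGs at 0.574% and 0.647% that contains an end of Pitx1. With windows of 2 kb, this far end became the CpG-richer end of Catsper3, with 40 CpGs at 19.8% in TSPAN8-high.

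The level at the start followed the CpG number of the promoter. Within 500 bp of the annotated start, 21 members had a listed CpG and 7 had none, and this window and the classes of CpG number were chosen after the values were seen. All 8 members with 0 to 4 promoter CpGs were above 80% in TSPAN8-high, beside 70.9% of 2652 genes of that class. Of 7 members with 5 to 9, 4 were below 20% (Tnp1, H1fnt, Zpbp and Ldhc), 2 above 80% (Spaca3 and Tssk2), and Izumo1 lay at 21.2%. In that class 60.9% of 1980 genes were below 20% and 27.2% above 80%. The 3 members with 10 to 19 (Spaca1, Tssk3 and Tssk6) and the 3 with 20 or more (Zpbp2, Odf2 and Catsper2) were below 20%, as were 97.9% and 99.8% of genes in those classes. Several of these starts rest on 1 listed CpG, among them those of Prm2, Acrv1, Spaca7, Tssk2 and Spaca1.

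**Figure D4:**
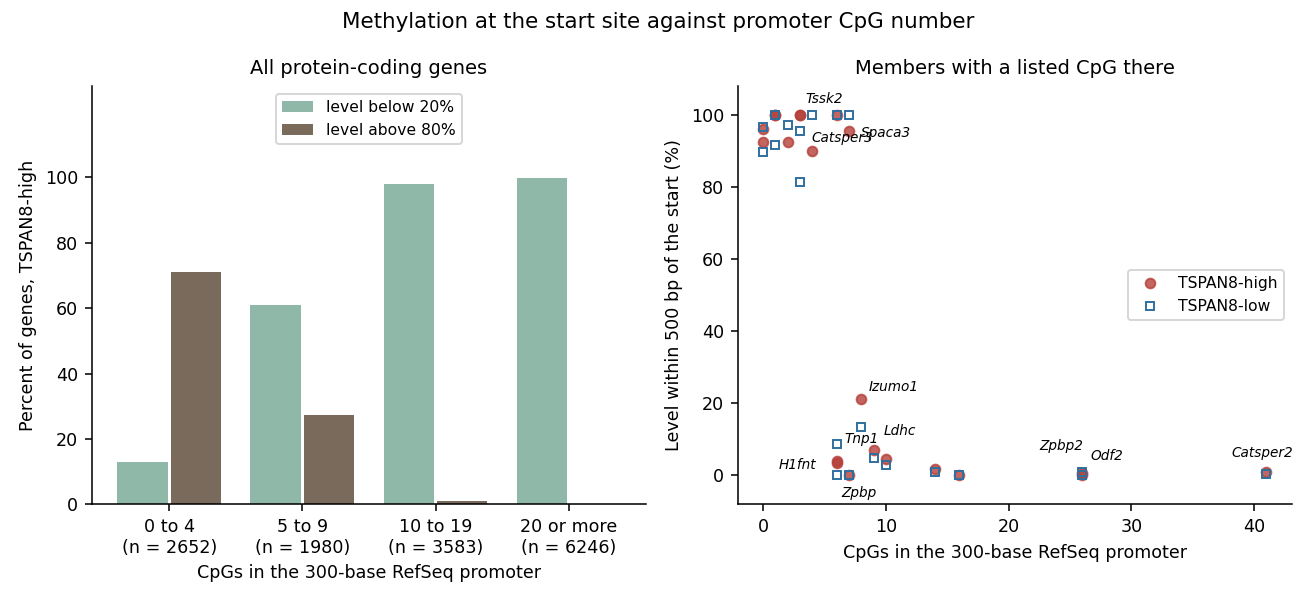
Left, percent of all protein-coding genes with a level below 20% (green) or above 80% (brown) within 500 bp of the start in TSPAN8-high, by CpGs in the 300-base promoter. Right, the level of each member with a listed CpG there in both libraries: members with 0 to 4 CpGs sit at the top, those with 10 or more at the bottom, and those with 5 to 9 at both.

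The same order held for single cytosines. Member cytosines with at most 2 listed CpGs in the surrounding 200 bp averaged 89.7% and 89.5%, those with 3 to 9 averaged 73.1% and 72.8%, and those with 10 or more 0.858% and 0.914%. Over all cytosines the averages were 89.1% and 89.3%, 67.0% and 67.1%, and 1.74% and 1.72%. A run of at least 3 neighbouring listed CpGs below 20% in both libraries, a rule set after seeing the values, was found in 15 members, with 23 runs in all, and in none of the other 18. No share over all genes is given beside this count, so it is not read as a trait of the members. The only runs of Gapdhs, Catsper3, Tssk3 and Catsper2 contain an end of Tmem147, Pitx1, Fam229a and Pdia3, in that order. A run of Tssk6 contains an end of Ndufa13, and a run of Izumo1 contains an end of Rasip1. The only run of Tnp2 lay 421 bp from an end of Socs1.

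A search for the cyclic AMP response element TGACGTCA on either strand of the 300-base promoters found it in 1 of 28 members, Izumo1, and in 2.33% of 17491 promoters. In Izumo1 it starts 96 bases before the start site, within the sequence given for it, and its CpG is not among the listed ones. The shorter core TGACG, which the full site contains, was found in 10 of 28 member promoters (35.7%) and in 23.8% of all promoters. Both motifs contain a CpG, and the member promoters had a median of 5 CpGs beside 13 over all promoters. Forms of the element without a CpG were not searched, so a promoter without a match may still hold one. The motif search was added after the values were seen.

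Between the 2 libraries no member reached the call of an adjusted p below 0.05 with a difference of at least 10 percentage points, by Fisher's exact test (two-sided) of the pooled reads, adjusted over all genes by the Benjamini-Hochberg method. The count was 0 of 21 at richer ends, where 0.769% of all tested genes were called, 0 of 6 at poorer ends (0.522%) and 0 of 29 over gene spans (1.14%). Counts of 0 among so few members are near that background. Without the minimum difference 1 richer end, 0 poorer ends and 1 span of the members passed, where 4.4%, 0.692% and 18.1% of genes did. At an unadjusted p below 0.05 the members had 3 of 21 richer ends, 0 of 6 poorer ends and 5 of 29 spans, and all genes 17.0%, 11.1% and 30.1%. The median difference of the members, high minus low, was -0.255 percentage points at richer ends and -0.778 over spans, and over all genes -0.0132 and -0.520.

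The richer end of Catsper3 passed without the minimum difference. It had 199 of 205 methylated reads in TSPAN8-high (97.1%) and 114 of 129 in TSPAN8-low (88.4%), which is 8.70 percentage points apart (95% Newcombe interval 3.15 to 15.6, Fisher's exact test, adjusted p = 0.0495). Of its 8 CpGs, 6 were higher in TSPAN8-high, 1 was lower and 1 was equal. The values at -670, -664, -624 and -565 bases from the start of Catsper3 were 97.3%, 100%, 95.8% and 66.7% in TSPAN8-high and 94.1%, 88.2%, 90.9% and 83.3% in TSPAN8-low. The adjusted p was 0.0502 with windows at the annotated start and 0.612 with 1 CpG per 100 bp.

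The span of Zpbp was at 69.4% of 3437 reads in TSPAN8-high and 74.7% of 3219 in TSPAN8-low, so that the difference was -5.23 percentage points (interval -7.38 to -3.07, Fisher's exact test, adjusted p = 8.79e-05). The low stretch around its start was covered by 699 reads in the high library and 484 in the low one. With each cytosine given equal weight the span of Zpbp was at 72.2% in both libraries, a difference of -0.00687 percentage points.

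Other members with an unadjusted p below 0.05 did not pass the adjustment. Tnp1 differed by -4.48 percentage points at its start side (interval -8.16 to -0.809, Fisher's exact test, adjusted p = 0.162). Izumo1 differed by 7.76 at its start side (0.283 to 15.2, adjusted p = 0.280 in Fisher's exact test), and by 2.47 with each cytosine given equal weight. Over spans the differences were -3.33 for Acr, 3.94 for Tssk2, -3.09 for Catsper2 and -4.99 for Tnp1, with adjusted p of 0.0967, 0.0937, 0.118 and 0.0887 in Fisher's exact tests. Where intervals were narrow they held the difference to small values: -1.16 to 0.218 percentage points at Crem, -1.06 to 0.538 at Tssk3 and -0.557 to 1.74 at Zpbp2. These intervals can be too narrow, because a read is counted at each CpG it covers. The intervals of Dnah8 (-19.7 to 1.32), Tnp2 (-11.4 to 11.2), H1fnt, Acrv1, Izumo1 and Catsper3 include a difference of 10 percentage points in at least 1 direction.

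**Figure D5:**
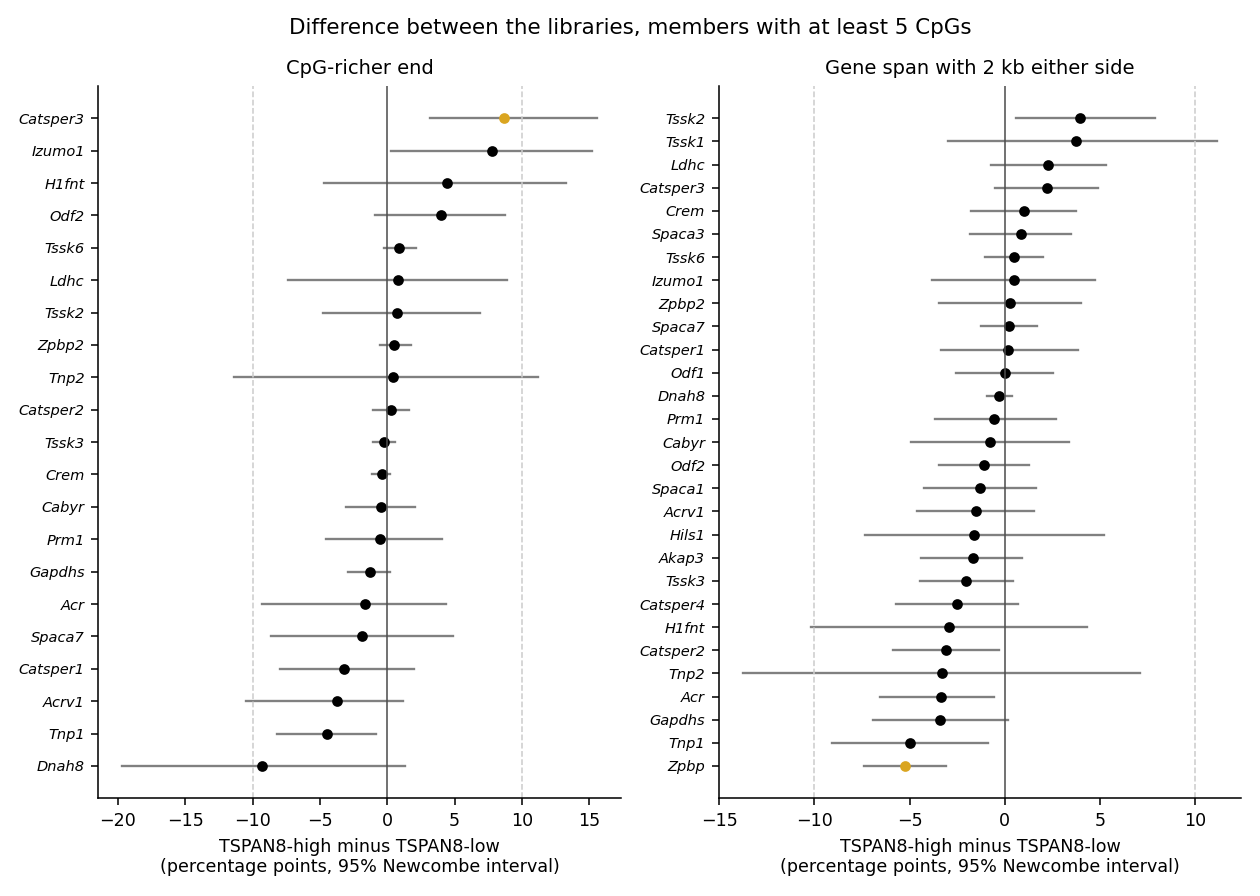
Difference in methylation level, TSPAN8-high minus TSPAN8-low (percentage points, 95% Newcombe intervals), for the 21 richer ends (left) and the 29 spans (right) of members with at least 5 CpGs; dashed lines mark 10 points either way. Gold points, Catsper3 at left and Zpbp at right, have an adjusted p below 0.05, and all points lie within 10 points of 0.

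At single cytosines 0 of the members' 3355 passed, beside 75 of all 6745376 (0.00111%). Without a minimum difference the members again had 0, where 0.00262% of all passed. The lowest adjusted p of a member cytosine was 0.9995 in Fisher's exact test. An unadjusted p below 0.05 was found at 40 (1.19%), of which 28 were higher and 12 lower in TSPAN8-high, and at 1.46% of all cytosines. No split by direction over all cytosines is given, and some of the 40 lie in the same gene. The split is therefore not read as a lean of the members. The smallest unadjusted p belonged to a cytosine of Catsper3 at position 55796014 of chromosome 13, with 23 of 30 and 10 of 32 methylated reads (76.7% and 31.2%). In the Izumo1 CpG that lies 462 bases before the start, the cytosine at position 45621349 had 20 of 26 and 14 of 34 methylated reads.

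The wider process was read from 90 other genes of spermiogenesis in 6 lists, of which 71 had a richer end with at least 5 CpGs. Of these, 52 were below 20% and 11 above 80% in both libraries. Richer ends below 20% numbered 4 of 4 among chromatin genes, 13 of 16 among acrosome genes, 16 of 20 among flagellum genes, 7 of 12 in metabolism, 4 of 7 among channel genes and 8 of 12 among regulators. Among the low ones were Rnf8, a ubiquitin ligase of histone removal (0.480% and 0.482%), Efcab9, a CatSper subunit (0.462% and 1.17%), and Nr6a1, a nuclear receptor (0.403% and 1.11%). Among the methylated ones were Ropn1, a fibrous sheath protein (100% and 98.4%), Cyct, testis cytochrome c (98.8% and 94.7%), Hvcn1, a proton channel (94.3% and 99.3%), and Spata16, an acrosome protein (94.9% and 98.0%). Of the 71, 1 gene, Meig1, was called and was higher in TSPAN8-high, and 0 were called lower, beside 0.769% of all tested richer ends called in either direction. Meig1, needed for the sperm tail, was at 93.0% of 284 reads and 78.3% of 240 over 12 CpGs at its far end (14.6 percentage points, interval 8.68 to 20.8, Fisher's exact test, adjusted p = 0.000554). With at least 10 reads per cytosine the difference at Meig1 was 10.2 points with an adjusted p of 0.0742 in Fisher's exact test. Of 87 spans 0 were called, beside 1.14% of all spans, so both counts are near the background.

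Both libraries held 83658949 and 83773700 reads over all listed cytosines, and 42983 and 42891 over those of the members, and the median depth was 10 reads per cytosine. The pooled level was 69.3% and 70.6% in members and 72.4% and 73.2% over all cytosines. As a check of cell identity, ends of maternally imprinted genes, whose imprints male germ cells lack, were at 0.754% and 0.820% for Peg3, 2.78% and 1.04% for Plagl1, 2.97% and 8.28% for Kcnq1ot1 and 13.2% and 13.4% for Mest, while the 3 CpGs listed for Snrpn were at 85.7% and 80.4%. The region upstream of H19 is methylated in male germ cells. No strand was given for H19, so both flanks (1 to 5 kb beyond either end) were read, without telling which is upstream. They were at 95.9% to 100%. Read numbers were even at 62.2% and 58.6% of member cytosines, and no molecular identifiers tell repeated copies of a molecule apart. Intervals and p values thus cover counting error at most. In windows a read is counted at each CpG it covers. At Prm1 the CpGs at positions 10796515, 10796518, 10796521 and 10796524 had 62, 62, 62 and 61 reads in TSPAN8-high. Window intervals can therefore be too narrow, and window p values too small.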

How the data were processed

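The authors deposited 1 table for both RRBS libraries, with 1 cytosine, on 1 strand, per line. Per the file headers its methylation level is a fraction, and coverage is a read count, never below 5 in the file. The deposited p-value equalled Fisher's exact test at 93.4% of member cytosines (relative tolerance 0.001), and the deposited difference was not used. The submitters' processing notes name mm10, mm9, Bowtie and SICER; which served the RRBS is not given in the sources used here. Of 159669 listed cytosines in RefSeq promoters, 100% matched the GRCm38 base.

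The number of methylated reads was taken as the level times the coverage, rounded. Reads were pooled per window, and windows with at least 5 CpGs were tested with Fisher's exact test, two-sided (Benjamini-Hochberg over all protein-coding genes of a window kind). A window call needed an adjusted p below 0.05 and 10 percentage points, a cytosine call 20. Levels have exact Clopper-Pearson 95% intervals, differences Newcombe intervals, and a share of 0 allows up to 3 counts. A read over several CpGs is counted at each, so window intervals can be too narrow and window p values too small. Scripts used Python 3.11.15, scipy 1.17.1 and numba 0.67.0 and were tested on simulated data. The gene table holds no exons, so exon and intron positions were not used.

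Values are given for each member with at least 5 CpGs in a window, in full for split or borderline ones. Of the other genes, called ones and the extremes of each list are named. The members and lists were chosen with earlier results of these data known.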

Additional observations from a re-analysis of the deposited data

How the results depend on the processing

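No setting gave a member a called difference of at least 10 percentage points in any window kind, or a called cytosine; dropping the minimum difference gave 1 richer end and 1 span. The split of richer ends and the medians depended on the settings, which change both which members have at least 5 CpGs and the levels of single members. Of the levels of named genes, 50 moved beyond their exact 95% interval and 104 did not. With windows of 2 kb the richer end in TSPAN8-high was at 19.8% for Catsper3, 95.9% for Ldhc, 47.7% for Tnp2, 23.5% for H1fnt and 30.9% for Zpbp2. At Catsper3 and Ldhc the richer end had changed from the start side to the far end, so these levels describe another place. A median was taken as moved at 10 percentage points or more. With at least 10 reads, 1 richer end lay above 80% in each library, richer-end medians were 2.07% (TSPAN8-high) and 1.96% (TSPAN8-low), and the 1 poorer end left was at 0.673% and 0%. With at least 20 reads, 0 richer ends lay above 80% and 6 below 20% in TSPAN8-low, medians were 0.573% and 0.219% at richer ends and 65.7% and 62.2% over spans, and the richer end was the lower one in 100% of 2 members. With windows of 500 bp, 4 richer ends lay above 80% in each library, richer medians were 3.39% and 1.74%, and the poorer median in TSPAN8-low was 47.1%. With windows of 2 kb the poorer medians were 94.5% and 93.0%. With 1 CpG per 100 bp, 3 richer ends lay above 80% in each library and 6 below 20% in TSPAN8-low, the richer median in TSPAN8-high was 19.9%, and the poorer medians were 94.2% in both libraries. With the annotated start in place of the richer end, 1 start lay above 80% in each library, the start was the lower end in 44.4% and 55.6% of 18 members, and medians were 2.34% and 1.90% at starts and 94.3% and 94.7% at far ends.

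Of the differences of named genes, 6 changed sign or reached 0. Catsper2 over its span was at 1.21 with at least 10 reads and 0.711 with at least 20, and Acr and Tssk2 over their spans were at 0 and -0.296 percentage points with at least 20. Izumo1 was at -0.790 with windows of 2 kb, whose richer end was its far end and not its start side. Meig1 was at -2.61 at its annotated start, while the reported difference of Meig1 lies at its far end. Both values thus describe another place than the reported differences. The adjusted p of Catsper3 passed, where it could be tested, only as reported and without the deepest cytosines, and that of Zpbp was 0.443 and 0.808 with at least 10 and 20 reads and 0.271 with 1 CpG per 100 bp (Fisher's exact test). Acr passed only with at least 10 reads, at -7.36 percentage points. Apart from the moves to another gene end, the cause of these changes was not tested. No paired analysis was possible because each fraction has 1 library. The median depth was 10 reads per cytosine, and the part of depth in the number of called cytosines was not tested.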
